A study of Mus musculus with 2 samples.

Results

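Monocyte-like cells of wounded mouse skin were taken from single-cell RNA libraries by their transcript counts. A cell was kept when it held at least 5 UMIs (unique molecular identifiers, each standing for 1 captured transcript) of Lyz2, at least 2 of Ly6c2 and Plac8 together, and few or no UMIs of genes that mark other cells. These limits were fewer than 10 of C1qa, C1qb and C1qc together, 5 of Mmp12, 2 of Cd209a, 2 of Cd207, 3 of Retnlg and Cxcr2, 2 of Cd3d, Cd3e and Cd3g, and 20 of Col1a1 and Col1a2. The gate held 375 of 24649 cells, counting barcodes of 500 or more UMIs, 300 or more genes and no more than 15% mitochondrial UMIs. The cells were thus selected on measured counts of these genes, whose levels are given as a description only.

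The study asked what a Toll-like receptor 9 (TLR9) agonist does to the centre of a large skin wound. Both groups were wild-type mice, and the methods of the study name male C57BL/6J animals. A circular wound of 1.8 cm was made on the back, treated on days 0, 3 and 6, and sampled 2 days after the scab fell off. The WT_LW wounds were given PBS, per the labels, although the study's text also names a control oligodeoxynucleotide for this group, so what the agonist is compared with is uncertain. The TLR9agonist_LW wounds were given ODN2395, a CpG oligodeoxynucleotide that acts on TLR9. Each group was 1 library made from pooled mice. No difference between the groups can therefore be set against a spread between animals, no test was run, and treatment cannot be told apart from library. Intervals are exact 95% intervals that cover counting error only.

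Classical monocytes leave the bone marrow, enter injured tissue by way of the chemokine receptor CCR2, and there turn into macrophages or antigen-presenting cells. Ly6c2 encodes a surface protein of mouse classical monocytes, Plac8 is a small cysteine-rich protein of myeloid cells, and Lyz2 is the lysozyme of monocytes, macrophages and neutrophils. Freshly arrived monocytes secrete IL-1 and chemokines that bring in neutrophils. TLR9 senses unmethylated CpG DNA inside endosomes and signals through MYD88 to NF-kB and interferon genes.

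The WT_LW library held 11443 filtered cells and the TLR9agonist_LW library 13206, from 99374045 and 132339022 UMIs in all barcodes. The gated cells carried 1784465 and 1433649 UMIs, with medians of 7398 and 7946.5 UMIs and of 2237 and 1957.5 genes per cell. Depth therefore differed little between the compared cells, although the deeper cells of TLR9agonist_LW showed fewer genes. The libraries shared 39 cell barcodes after the filter, and none of them lay in the gate of both libraries. The barcode of 1 gated WT_LW cell was found among the other cells of TLR9agonist_LW.

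In WT_LW the gate held 209 cells, or 1.83% of the filtered cells (interval 1.59 to 2.09). In TLR9agonist_LW it held 166 cells, or 1.26% (1.07 to 1.46), a log2 ratio of -0.54 (-0.84 to -0.24). Cells of 3 other mononuclear gates were fewer in TLR9agonist_LW as well. The C1q-high macrophage gate held 721 and 562 cells, the Mmp12-high macrophage gate 187 and 101, and the Cd209a dendritic cell gate 184 and 114. Within these 4 gates, which share no cell, monocyte-like cells made up 16.1% of 1301 cells (14.1 to 18.2) in WT_LW and 17.6% of 943 (15.2 to 20.2) in TLR9agonist_LW. The lower share of monocyte-like cells among all cells was thus not seen among the mononuclear cells, where the intervals overlap.

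**Figure D1:**
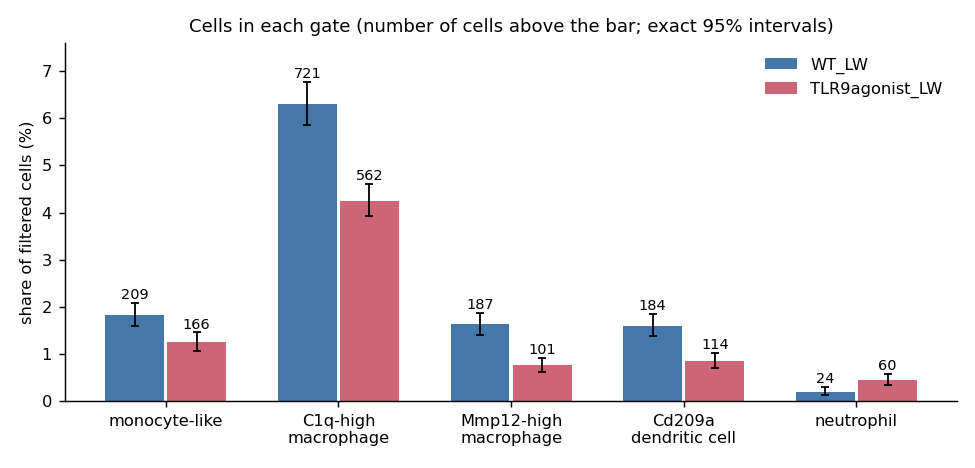
Share of filtered cells in each gate (vertical axis, percent) in WT_LW and TLR9agonist_LW, with exact 95% intervals and the number of cells above each bar. Monocyte-like cells made up 1.83% and 1.26%, and of the gates plotted only that of neutrophils was larger in TLR9agonist_LW, with 24 and 60 cells.

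The limits on Ly6c2, Plac8 and C1q removed most Lyz2-positive cells. Of 2160 WT_LW cells with at least 5 Lyz2 UMIs, 475 met the limit on Ly6c2 and Plac8 and 348 of these the limit on C1q. The same steps left 299 and then 241 of 1350 cells in TLR9agonist_LW. Exactly at the limit of 2 Ly6c2 and Plac8 UMIs stood 29 cells of WT_LW and 7 of TLR9agonist_LW, with 82 and 20 cells of 1 UMI just outside. At that edge Ccr2 in WT_LW was at 287 CPM (UMIs of the gene per 1000000 UMIs of the same cells) on both sides, while Apoe was at 1554 CPM inside and 3036 CPM outside. In TLR9agonist_LW, Ccr2 was at 95.8 CPM inside and 116 CPM outside, and Apoe at 905 and 680 CPM. The limit on collagen fell differently in the 2 libraries, since 15 to 19 collagen UMIs were held by 3 gated cells of WT_LW and 27 of TLR9agonist_LW.

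The gene that the label names and the rule does not use is Ccr2, the receptor for CCL2. Its level was 432 CPM (402 to 464) in WT_LW and 193 CPM (170 to 217) in TLR9agonist_LW, a log2 ratio of -1.17 (-1.37 to -0.97). T cells of the same libraries, where Ccr2 is a known gene of some subsets, held 329 and 573 CPM, so Ccr2 did not set the gated cells of TLR9agonist_LW apart from T cells. Other genes of classical monocytes did. Chil3, a chitinase-like secreted protein, was at 114 and 45.3 CPM against 0.71 and 0.245 CPM in T cells, and Ifitm6 was at 51.0 and 46.7 CPM against 0.761 and 0.588. F13a1, coagulation factor XIII, was at 115 and 76.0 CPM against 2.59 and 2.06 CPM in T cells, but was higher in C1q-high macrophages, at 226 and 202 CPM. The monocyte-like cells, under 2% of each library, carried 31.1% of all Chil3 UMIs in WT_LW and 55.1% in TLR9agonist_LW, and 53.2% and 41.6% of those of Ifitm6.

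The genes used by the gate moved in different directions between the libraries. Ly6c2 stood at 831 CPM in WT_LW against 489 CPM in TLR9agonist_LW, and Plac8 at 1624 and 2417 CPM. Lyz2 was at 8770 and 5357 CPM. In WT_LW 26 of 209 cells (12.4%, 8.29 to 17.7) entered through Ly6c2 without any Plac8, compared with 1 of 166 (0.602%) in TLR9agonist_LW. Cells with Plac8 and no Ly6c2 made up 28.2% and 36.7%, and cells with both 59.3% and 62.7%.

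Transcripts that mark other cell types were found in the gated cells of both libraries, and their source was not tested. A list of 6 keratin genes, which mark keratinocytes, summed to 1690 and 2126 CPM, and 123 cells (58.9%) of WT_LW and 165 (99.4%) of TLR9agonist_LW held at least 3 keratin UMIs. Fibroblast genes summed to 1316 and 2070 CPM, pericyte genes to 181 and 69.8 CPM, and mast cell genes to 179 and 83.7 CPM. The gate itself limits the T cell, neutrophil and fibroblast sums through the Cd3 genes, Retnlg, Cxcr2, Col1a1 and Col1a2, so these sums say little about other RNA. The NK cell, B cell and erythroid lists, which the gate does not use, were between 1.40 and 20.2 CPM. Other lists that it does not use were higher. The endothelial list summed to 99.7 and 80.2 CPM. The plasmacytoid dendritic cell list summed to 139 and 94.2 CPM, most of it Tcf4 (121 and 77.4 CPM). Ms4a1, Gzma and Siglech were at 0 in both libraries, while Nkg7 had 23 and 4 UMIs and Jchain 15 and 5. Single cells weighed heavily on the keratin sum, since Krt10 had 624 of its 1066 UMIs in 1 cell of TLR9agonist_LW and Krt14 651 of its 1151 in 1 cell of WT_LW. Keratin UMIs were nevertheless found in many cells, and 42.6% of WT_LW cells and 87.3% of TLR9agonist_LW cells held a Krt10 UMI. On the CPM scale Krt5, Krt14, Krt6a and Krt17 were lower in TLR9agonist_LW and Krt10 and Krt1 higher. The share of unthinned cells with a UMI was larger in TLR9agonist_LW for all 6. It was 61.2% and 90.4% for Krt14 and 15.3% and 48.2% for Krt17. Without the highest cell of each library the log2 ratio of Krt14 was 0.076. The part of these lists in the values below was not tested. A doublet caller marked 9 of the gated cells of WT_LW (4.31%) and 4 of TLR9agonist_LW (2.41%), which were kept. In the following, the level in T cells is given where it bears on a gene, because T cells should lack most myeloid transcripts.

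Over the 5572 genes with at least 50 UMIs in the gated cells, the median log2 ratio of TLR9agonist_LW over WT_LW was -0.34. It was -0.31 in T cells. On the CPM scale 125 genes (2.24%) were at least 2-fold higher and 546 (9.8%) at least 2-fold lower in TLR9agonist_LW. After the median was set to 0 these counts became 262 and 196, so that 57.2% instead of 18.6% of the genes past 2-fold were higher. Ratios below are on the CPM scale, and a gene between -0.34 and 0 is lower on that scale and higher relative to the median gene.

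Chemokines that attract neutrophils were higher in TLR9agonist_LW. Cxcl2, a ligand of the neutrophil receptor CXCR2, was at 5599 CPM (5490 to 5710) in WT_LW against 20799 CPM (20563 to 21036) in TLR9agonist_LW. This is 3.71-fold higher, a log2 ratio of 1.89 (1.86 to 1.93). Cxcl3, a ligand of the same receptor, was at 271 and 1122 CPM, or 4.14-fold higher. Cxcl1 was at 234 and 427 CPM, a log2 ratio of 0.87, but its ratio moved between -0.11 and 2.09 across the alternative gates and scalings. T cells held 379 and 2607 CPM of Cxcl2 and 32.9 and 487 CPM of Cxcl3, a larger ratio at a lower level.

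The cells of TLR9agonist_LW with high Cxcl2 were many, not few. The median WT_LW cell held 13.4 Cxcl2 UMIs per 10000 (quartiles 1.7 and 74.8) and the median TLR9agonist_LW cell 148.3 (17.6 and 286.6). The highest cells reached 665 and 860.7 per 10000, so the ranges overlap fully while the medians lie far apart. When each cell was thinned to 1500 UMIs, Cxcl2 was still found in 68.4% of 209 cells of WT_LW and 83.0% of 165 of TLR9agonist_LW. The same share was 25.7% and 45.5% in T cells, whose unthinned median depths were 4460 and 4715 UMIs.

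The other chemokines differed less or in both directions. Of 15 measured members of the chemokine list, 3 were at least 2-fold higher (Cxcl2, Cxcl3 and Ccl8, the last at 22.4 and 45.3 CPM) and 1 was at least 2-fold lower, with a list median of 0.080 and 11 members above 0 (background 2.24% and 9.8% of all measured genes). Ccl4, a chemokine of activated myeloid cells, was at 957 and 967 CPM, and its log2 ratio of 0.014 fell as low as -1.32 across the alternatives. Ccl3 was at 386 and 408 CPM. Ccl2, the ligand of CCR2, was at 419 and 530 CPM, a log2 ratio of 0.34 that ranged from -0.30 to 1.56 across the alternatives. Ccl9 was lower, at 430 and 321 CPM. Pf4, platelet factor 4, which macrophages also express, was 9.46-fold lower at 145 and 15.3 CPM, but 125 of its 259 WT_LW UMIs came from 1 cell, and without the highest cell of each library its log2 ratio was -2.36.

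The promoters of Cxcl2 and Cxcl3 are shown because the 2 transcripts were high together. Both genes lie in the chemokine cluster of mouse chromosome 5, and the windows below run from 120 to 21 bases before the annotated start on the plus strand (RefSeq, GRCm38.p6), at chr5:90903779-90903878 for Cxcl2 and chr5:90785981-90786080 for Cxcl3. Capitals mark GGG, then any 2 bases, then TTTCC, a form of the NF-kB motif that was searched on both strands.
Cxcl2: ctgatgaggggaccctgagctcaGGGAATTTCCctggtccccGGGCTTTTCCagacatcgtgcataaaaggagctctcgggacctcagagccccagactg
Cxcl3: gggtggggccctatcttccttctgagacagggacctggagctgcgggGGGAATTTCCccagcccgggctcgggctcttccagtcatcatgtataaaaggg
The Cxcl2 window holds the letters at 97 and 78 bases before the start, and the Cxcl3 window at 73 bases. Of 32817 promoter windows of 250 bases, 464 (1.41%) hold them. Among other windows looked at, those of Cxcl1, Nfkbia and 1 start of Il1rn hold them too, and those of Il1b, Ptgs2, Inhba, Slpi and Tnf do not. A match of letters is a description of the sequence and was not tied to binding in these data.

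Of the inflammatory cytokine list, the IL-1 genes and the cyclooxygenase gene Ptgs2 were higher in TLR9agonist_LW. Among 8 measured members, 4 were at least 2-fold higher (Ptgs2, Il6, Il1b and Il1a) and none at least 2-fold lower. Over all measured genes these shares were 2.24% and 9.8%. Il6 is counted among the 4 although its level was below that of T cells. Il6 also met the floor only through its level in TLR9agonist_LW, so its place among the 4 was tied to that level. Osm and Il18 had a negative ratio. The median log2 ratio was 1.13, and 0.45 with Ly6c2 alone in place of Ly6c2 and Plac8. The summed level was 4194 and 9924 CPM, most of it Il1b, with 305 and 608 CPM in T cells.

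Il1b, an IL-1 cytokine that activated monocytes secrete, was at 2710 CPM (2634 to 2788) in WT_LW against 6824 CPM (6689 to 6960) in TLR9agonist_LW, 2.52-fold higher. The median cell held 18.3 and 35.7 Il1b UMIs per 10000. After thinning, 72.7% and 86.1% of the cells held a UMI of Il1b, compared with 7.91% and 9.90% of T cells, so these shares lay above those of T cells. Il1a was at 19.1 and 46.0 CPM, a log2 ratio of 1.27. Il1rn, the receptor antagonist that blocks both forms, was at 392 and 779 CPM, a log2 ratio of 0.99.

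Ptgs2, the inducible cyclooxygenase that makes prostaglandin precursors, was 3.77-fold higher, at 444 and 1678 CPM. After thinning, its share of cells with a UMI was 25.8% for WT_LW and 58.2% for TLR9agonist_LW, against 3.36% and 10.5% of T cells. Il6 was at 8.41 and 25.1 CPM, below the 9.59 and 54.9 CPM of T cells. After thinning, 2.87% and 2.42% of the gated cells held an Il6 UMI, against 1.30% and 5.39% of T cells. The source of these UMIs was not tested. Tnf was at 178 and 225 CPM and Osm, an IL-6 family cytokine, at 386 and 306 CPM. The Il18 level was 56.0 and 40.5 CPM.

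**Figure D2:**
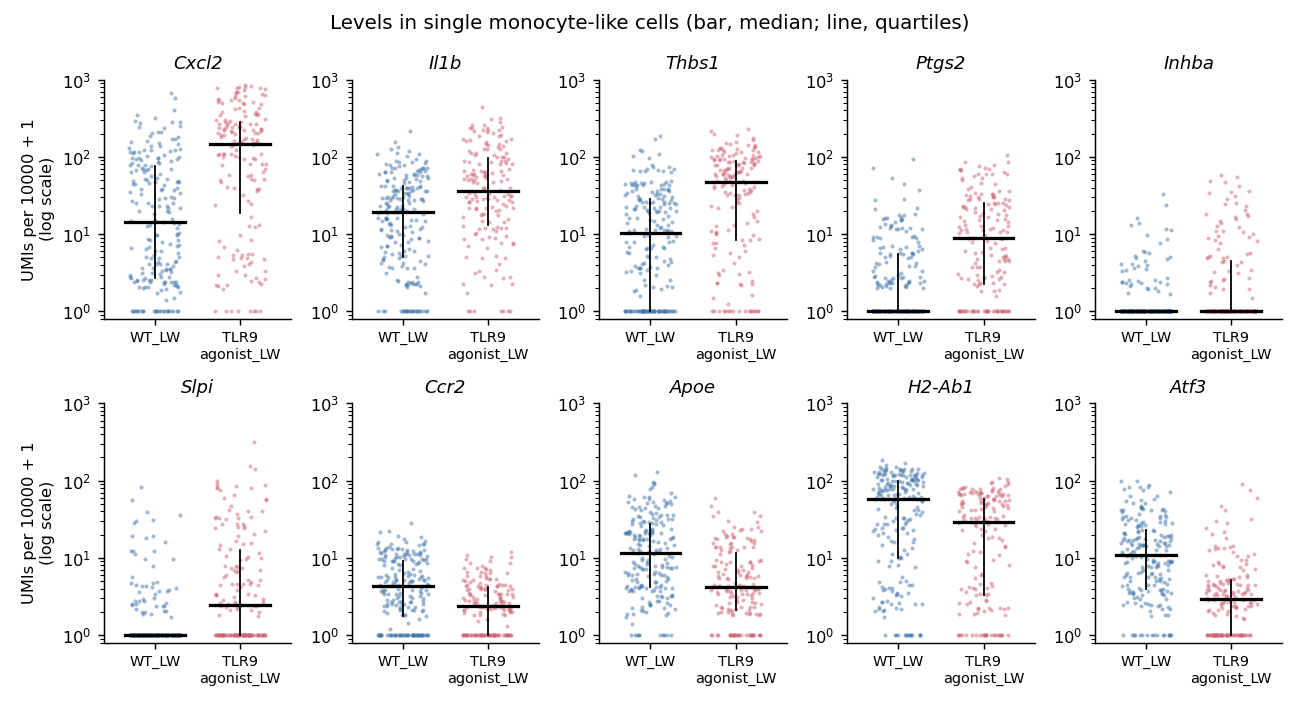
Level of selected genes in single monocyte-like cells of WT_LW (209 cells) and TLR9agonist_LW (166 cells), as UMIs per 10000 plus 1 on a log axis, with 1 point per cell, a bar at the median and a line between the quartiles. The median of Cxcl2 was 13.4 and 148.3 per 10000 and that of Il1b 18.3 and 35.7, and cells of both libraries span nearly the whole range.

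Factors of wound repair were split between higher and lower members. The list had 17 measured genes, of which 3 were at least 2-fold higher and 3 at least 2-fold lower, with a median of -0.18. Over all measured genes the shares were 2.24% and 9.8%. Thbs1, thrombospondin 1, a matrix protein that can activate latent TGF-beta, was at 1672 CPM in WT_LW against 5279 CPM in TLR9agonist_LW, or 3.16-fold higher. The median cell held 9.3 and 46.9 Thbs1 UMIs per 10000, and T cells held 60.2 and 93.8 CPM. Inhba, the subunit of activin A, was 5.01-fold higher at 107 and 536 CPM, with 5.38 and 13.9 CPM in T cells. After thinning 9.57% and 23.0% of the cells held an Inhba UMI, against 0.576% and 0.681% of T cells.

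Mmp13, a collagenase, had no UMI in WT_LW and 57 UMIs (39.8 CPM) in TLR9agonist_LW. Of the 57 UMIs 32 came from 1 cell, and 11 cells held any. Mmp13 passed the floor of 50 UMIs through TLR9agonist_LW alone, so its place among the 3 higher genes was fixed by the floor. Vegfa, the vascular growth factor, was at 314 and 428 CPM, and Spp1, osteopontin, at 344 and 663 CPM. Lower members were Timp1, an inhibitor of metalloproteinases, at 72.3 and 27.9 CPM, and Pdgfb at 26.9 and 7.67 CPM. Pdgfb met the floor only through its level in WT_LW. Arg1, arginase 1, was lower as well, at 39.8 and 18.8 CPM, and was found in 17 and 7 cells. Among abundant matrix genes, Tgfbi at 1497 and 1034 CPM and Fn1, fibronectin, at 530 and 330 CPM, were lower by less than 2-fold.

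Slpi, a secreted inhibitor of neutrophil elastase, was at 280 CPM in WT_LW against 1577 CPM in TLR9agonist_LW, 5.64-fold higher. T cells held 9.13 and 53.0 CPM of Slpi, and the share of cells with a UMI after thinning was 11.5% and 40.6%, against 0.848% and 4.40% in T cells. Hmox1, heme oxygenase 1, was at 438 and 1178 CPM, a log2 ratio of 1.43. Slc7a11, the cystine transporter that feeds glutathione synthesis, was at 296 and 956 CPM, while T cells showed 20.6 and 18.8 CPM. In the oxidase and microbicidal list, Slpi and Hmox1 were the 2 of 12 measured members past 2-fold, against 2.24% of all measured genes at least 2-fold higher. Cybb, the catalytic subunit of the phagocyte oxidase, was at 650 and 612 CPM, and Mpeg1, perforin 2, was lower at 401 and 204 CPM.

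Genes of glycolysis and of the response to low oxygen were higher across the list. Of 20 measured members 6 were at least 2-fold higher and none at least 2-fold lower, against 2.24% and 9.8% of all measured genes. The median log2 ratio was 0.51, and all 20 lay above the median gene. The lactate exporter Slc16a3 was at 117 and 333 CPM, hexokinase 2 (Hk2) at 49.9 and 125 CPM, and the glucose transporter Slc2a1 at 72.3 and 159 CPM. Bnip3, a mitophagy receptor induced by HIF-1, was at 22.4 and 68.4 CPM, and Ankrd37 at 5.04 and 31.4 CPM. Ankrd37 met the floor of 50 UMIs only through its level in TLR9agonist_LW, so its place among the 6 was tied to that level. The abundant enzyme Gapdh differed less, at 1724 and 2094 CPM. Many of these genes were also higher in T cells of TLR9agonist_LW, where Slc16a3 was at 17.5 and 92.7 CPM.

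Classical monocyte genes did not move as 1 group. Among the 11 measured members that the gate does not use, 2 were at least 2-fold higher and 2 at least 2-fold lower, with a median of -0.60. Over all measured genes the shares were 2.24% and 9.8%. Clec4e, the receptor Mincle that binds mycobacterial glycolipid, was at 479 CPM in WT_LW against 1148 CPM in TLR9agonist_LW, with 14.5 and 17.4 CPM in T cells. Hp, haptoglobin, was at 98.6 and 209 CPM. Ccr2 and Chil3 were the 2 lower members. Vcan, the proteoglycan versican, was at 185 and 196 CPM, and Ms4a4c at 535 and 313 CPM.

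Genes of non-classical monocytes were lower. Of 10 listed genes 5 were measured, and 4 of these were at least 2-fold lower, against 9.8% of all measured genes. Among the 4 were the fractalkine receptor Cx3cr1 (23.5 and 9.77 CPM), the Fc receptor Fcgr4 (39.2 and 13.95 CPM) and the nuclear receptor Nr4a1 (257 and 111 CPM). Cx3cr1 met the floor only through its level in WT_LW. Nr4a1 is also an immediate early gene, and T cells held more of it, at 487 and 403 CPM.

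Macrophage genes were lower in part. Of 17 measured maturation genes 3 were at least 2-fold lower and none at least 2-fold higher, against 9.8% and 2.24% of all measured genes. The median was -0.42, which is -0.080 relative to the median gene. Apoe, the lipid carrier of tissue macrophages, was at 1769 CPM in WT_LW against 656 CPM in TLR9agonist_LW, a log2 ratio of -1.43. The median cell held 10.4 and 3.2 Apoe UMIs per 10000. T cells held 433 and 331 CPM, and after thinning 69.9% and 46.7% of the gated cells held Apoe, against 35.4% and 27.1% of T cells. The gated cells carried 1.32% and 0.517% of all Apoe UMIs, less than their share of the cells. Mrc1, the mannose receptor, was at 244 and 110 CPM, Trem2 at 76.2 and 35.6 CPM, and the growth factor receptor Csf1r at 381 and 222 CPM. In the other direction stood Lgmn, legumain, at 377 and 642 CPM and Fabp5 at 1717 and 2146 CPM. In the alternative activation list 5 of 7 measured genes were at least 2-fold lower and 1 higher, against the same background. The lectin Mgl2 was at 101 and 26.5 CPM there, and Pdcd1lg2, the PD-1 ligand that was higher, at 14.01 and 33.5 CPM.

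Antigen presentation genes were lower as well. All 7 measured MHC class II genes had a negative log2 ratio, and also lay below the median gene, although only Ciita, their master regulator, was past 2-fold at 27.5 and 7.67 CPM. The summed level of the list was 28740 CPM in WT_LW against 20290 CPM in TLR9agonist_LW. T cells held far less, 2338 and 1431 CPM, which was lower in TLR9agonist_LW as well. H2-Ab1, the beta chain of I-A, was at 6014 and 3462 CPM, and Cd74, the invariant chain, at 11394 and 8423 CPM. Of 10 measured dendritic cell genes 3 were at least 2-fold lower, against 9.8% of all measured genes, with a median of -0.83. Among them was Fscn1, an actin bundler of mature dendritic cells, at 28.0 and 9.07 CPM. Fscn1 too met the floor only through its level in WT_LW. Cd86 was at 202 and 187 CPM.

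Interferon genes diverged within the list. Of 19 measured type I interferon genes 1 was at least 2-fold higher and 2 at least 2-fold lower, and the median was -0.59. Over all measured genes the shares were 2.24% and 9.8%, so the count of lower genes was near the background. The summed level nevertheless was larger in TLR9agonist_LW, at 2929 and 3457 CPM, since the most abundant member, Ifi27l2a, was at 1207 and 1935 CPM. Isg15, a ubiquitin-like modifier, was at 210 and 301 CPM, and Oasl1 at 20.7 and 56.5 CPM. In contrast the RNA sensor Ifih1 was at 52.1 and 23.7 CPM and the antiviral enzyme Rsad2 at 100 and 53.7 CPM. Among 14 measured genes of the interferon gamma response 1 was at least 2-fold lower (Ciita), also near the background, and the median was -0.65. As said above, Ciita met the floor only through its level in WT_LW. Cd274, the PD-1 ligand PD-L1, was at 142 and 228 CPM.

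The receptor of the agonist was barely detected. Tlr9 had 6 UMIs in the gated cells of WT_LW (3.36 CPM) and 3 in TLR9agonist_LW (2.09 CPM), and the interval of the log2 ratio, -3.31 to 1.54, leaves its direction undetermined at this depth. Of 12 measured genes of Toll-like receptor signalling none was past 2-fold, with a median of -0.46. Over all measured genes 2.24% were at least 2-fold higher and 9.8% at least 2-fold lower, so this count was near the background. Cd14, the co-receptor of TLR4, was at 1059 and 1742 CPM, Tlr2 at 217 and 155 CPM, and the adaptor Myd88 at 49.3 and 25.1 CPM. Targets and inhibitors of NF-kB lay higher, since 18 of 20 measured genes were above the median gene, with a list median of 0.21. Nfkbia, the inhibitor that NF-kB itself induces, was the only one of the 20 past 2-fold, also near the background, at 1096 and 2238 CPM. T cells showed nearly the same values, 1171 and 2291 CPM.

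Immediate early genes, which also respond to tissue dissociation, were mostly lower. Of 18 measured genes 5 were at least 2-fold lower and 1 at least 2-fold higher, with a median of -0.85. Over all measured genes the shares were 9.8% and 2.24%. Atf3, a repressor of cytokine genes, was at 1627 CPM in WT_LW against 502 CPM in TLR9agonist_LW, while T cells held 194 and 195 CPM. Fos was at 1968 and 628 CPM and Klf4 at 669 and 243 CPM. Fosb was at 501 and 114 CPM, with a like difference in T cells, 712 and 147 CPM. The heat shock gene Hspa1a was at 1599 and 2277 CPM, and at 989 and 3139 CPM in T cells. Ier3 was the member that was higher, at 1139 and 2489 CPM.

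**Figure D3:**
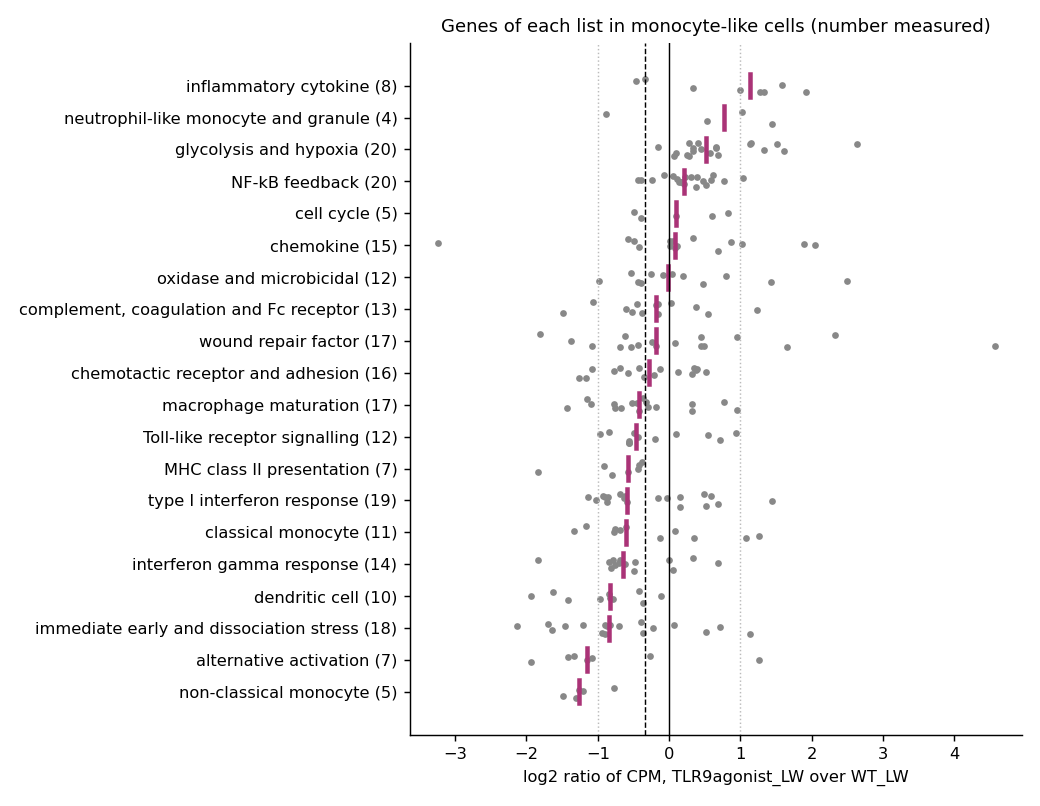
Log2 ratio of CPM, TLR9agonist_LW over WT_LW, for the measured genes of each list in monocyte-like cells, with 1 point per gene, the list median marked and the number of measured genes in brackets. Inflammatory cytokines have the highest median, 1.13, and non-classical monocyte genes the lowest, -1.27.

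The 15 genes with the highest ratio, among those with at least 200 UMIs in the gated cells and at least 10 in each library, fell into myeloid genes and genes of other sources. Slpi, Inhba, Cxcl3, Ptgs2, Cxcl2 and Slc7a11 were placed with the former, a division that was not tested. T cells, at lower levels, were 5.81-fold higher for Slpi, 14.8-fold for Cxcl3, 6.88-fold for Cxcl2 and 4.10-fold for Ptgs2. These T cell ratios were larger than those of the gated cells. For Inhba and Slc7a11 they were smaller, at 2.59 and 0.91. Serpinb2 was at 9.53 and 167 CPM, Sprr1b at 14.01 and 155 CPM, and Krt10 at 89.7 and 744 CPM. The last pair are genes of the cornifying epidermis, and 624 of the 1066 Krt10 UMIs of TLR9agonist_LW came from 1 cell, without which the log2 ratio was 2.08 instead of 3.05. T cells held 17.7 and 222 CPM of Serpinb2, 35.5 and 173 CPM of Sprr1b, and 520 and 770 CPM of Krt10. AY036118 (170 and 944 CPM) and Lars2 (122 and 455 CPM) were equally higher in T cells, at 223 and 954 CPM and at 211 and 730 CPM. Ero1l, an oxidase of the endoplasmic reticulum, was at 40.9 and 136 CPM.

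Among the 15 genes with the lowest ratio were Pf4, Fosb, Mgl2, Atf3, Fos and Klf2. Rab7b, a small GTPase of late endosomes, was at 388 and 92.8 CPM, and Il6ra, the IL-6 receptor, at 99.2 and 32.8 CPM. Col4a1 and Rgs5, genes of vessel walls, were at 180 and 37.7 CPM and at 139 and 46.0 CPM, with 90 and 97 of their UMIs in 1 WT_LW cell each and 30 of 54 and 42 of 66 in 1 TLR9agonist_LW cell each. The log2 ratio of Col4a1 ranged from -2.95 to -0.13 over the alternatives, the last with a collagen limit of 40 UMIs. That of Rgs5 ranged from -2.34 to -0.35. Gm26870 was at 108 and 20.9 CPM and differed as much in T cells, at 154 and 23.5 CPM.

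The alarmins S100a8 and S100a9, which neutrophils and some monocytes carry in bulk, need the T cell level beside them. S100a8 was at 254 CPM in WT_LW against 693 CPM in TLR9agonist_LW, and S100a9 at 324 and 657 CPM. T cells of TLR9agonist_LW held more, 1190 CPM of S100a8 and 1244 CPM of S100a9, against 120 and 135 CPM in WT_LW. In WT_LW 93.8% of the S100a8 UMIs lay in the 21 cells with the most of it, and in TLR9agonist_LW 97.0% of the cells held at least 1 UMI. The level in the gated cells of TLR9agonist_LW was thus under that of T cells, which should lack these genes. Whether these UMIs came from the gated cells was not tested, and the difference is not read as theirs.

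Within the gate the cells ranged from MHC class II-low to MHC class II-high. The cells of each library were divided into tertiles by the UMIs per 10000 of H2-Aa, H2-Ab1, H2-Eb1 and Cd74, genes that the gate does not use. The lowest tertile had a median of 13.9 over 70 cells of WT_LW and 7.33 over 56 of TLR9agonist_LW. In the highest the medians were 501 and 378. Some genes of the classical monocyte list were highest in the MHC class II-low cells, and others were not. From the lowest to the highest tertile, Ifitm6 was at 120, 29.7 and 6.62 CPM in WT_LW and 124, 15.2 and 3.96 CPM in TLR9agonist_LW. Vcan followed the same order, with 343, 129 and 92.7 CPM and with 366, 189 and 45.5 CPM. Chil3, at 237, 85.8 and 26.5 CPM in WT_LW, was at 66.3, 23.9 and 45.5 CPM in TLR9agonist_LW. Ms4a4c was at 578, 436 and 593 CPM in WT_LW and 455, 215 and 271 CPM in TLR9agonist_LW. Clec4e, at 393, 571 and 468 CPM and at 1067, 1232 and 1147 CPM, was highest in the middle tertile of both.

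The inflammatory genes were distributed differently over these tertiles. In WT_LW, Il1b was at 1464 CPM in the MHC class II-low cells, 2821 in the middle and 3784 in the MHC class II-high cells. In TLR9agonist_LW it was at 6791, 6655 and 7008 CPM, nearly level. Cxcl2 was highest in the middle tertile of both libraries, with 7475 CPM in WT_LW against 28636 CPM in TLR9agonist_LW. Each tertile of TLR9agonist_LW exceeded each tertile of WT_LW for Cxcl2, Il1b and Thbs1. Ccr2 was nearly level over the tertiles, at 447, 454 and 396 CPM and at 214, 174 and 190 CPM. Saa3, an acute phase protein, lay mostly in the MHC class II-high cells, with 382 CPM in WT_LW against 904 CPM in TLR9agonist_LW, but 1 cell held 165 of its 236 UMIs in WT_LW and 1 cell 348 of 514 in TLR9agonist_LW. Its log2 ratio over all gated cells, 1.44, was -1.34 under a stricter C1q limit of fewer than 3 UMIs.

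**Figure D4:**
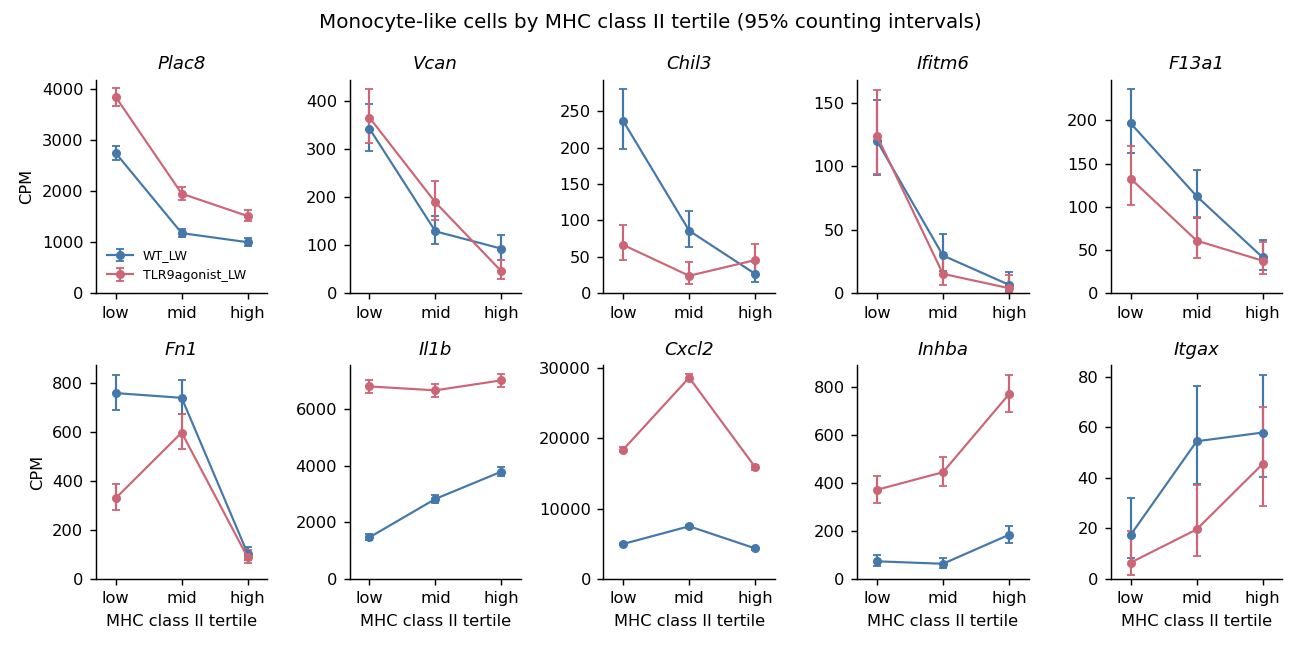
CPM of selected genes in the lowest, middle and highest tertile of MHC class II UMIs in monocyte-like cells of WT_LW and TLR9agonist_LW, with exact 95% intervals. Ifitm6 and Vcan drop from the lowest to the highest tertile in both libraries, and Il1b climbs from 1464 to 3784 CPM in WT_LW and stays between 6655 and 7008 CPM in TLR9agonist_LW.

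Beside the other mononuclear gates, the monocyte-like cells had the most Vcan in both libraries. Vcan was at 185 CPM against 29.1 in C1q-high macrophages, 55.6 in Mmp12-high macrophages and 22.4 in Cd209a dendritic cells of WT_LW, and at 196 against 16.5, 27.0 and 9.95 CPM in TLR9agonist_LW. Ifitm3, an interferon-induced membrane protein, and Ly6i, a relative of Ly6c2, were also highest in the monocyte-like gate of both libraries. Thbs1 was at 1672 and 5279 CPM here, at 603 and 700 CPM in C1q-high macrophages, at 555 and 2200 CPM in Mmp12-high macrophages and at 115 and 438 CPM in Cd209a dendritic cells. The gates share the 2 libraries and were not tested against each other.

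The ratio between the libraries was like that of some gates and unlike that of others. For Cxcl2 the log2 ratio was 1.89 in monocyte-like cells, 1.77 in Cd209a dendritic cells, 1.14 in Mmp12-high macrophages and 0.04 in C1q-high macrophages. The C1q-high macrophages held 6632 CPM of Cxcl2 in WT_LW and 6804 CPM in TLR9agonist_LW, so that the 2 gates stood near each other in WT_LW and apart in TLR9agonist_LW. Il1b gave 1.33, 1.69, 0.96 and 0.08 in the same order. Inhba gave 2.33, 2.15, 0.49 and 0.42, and Slc7a11 1.69, 1.98, 0.35 and -0.54. For Apoe the values were -1.43, -1.20, 0.04 and -0.19, and for Ccr2, which was lower in every one of these gates, -1.17, -0.60, -1.66 and -1.74. The medians over all measured genes of the gates were -0.34, -0.32, -0.33 and -0.13.

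**Figure D5:**
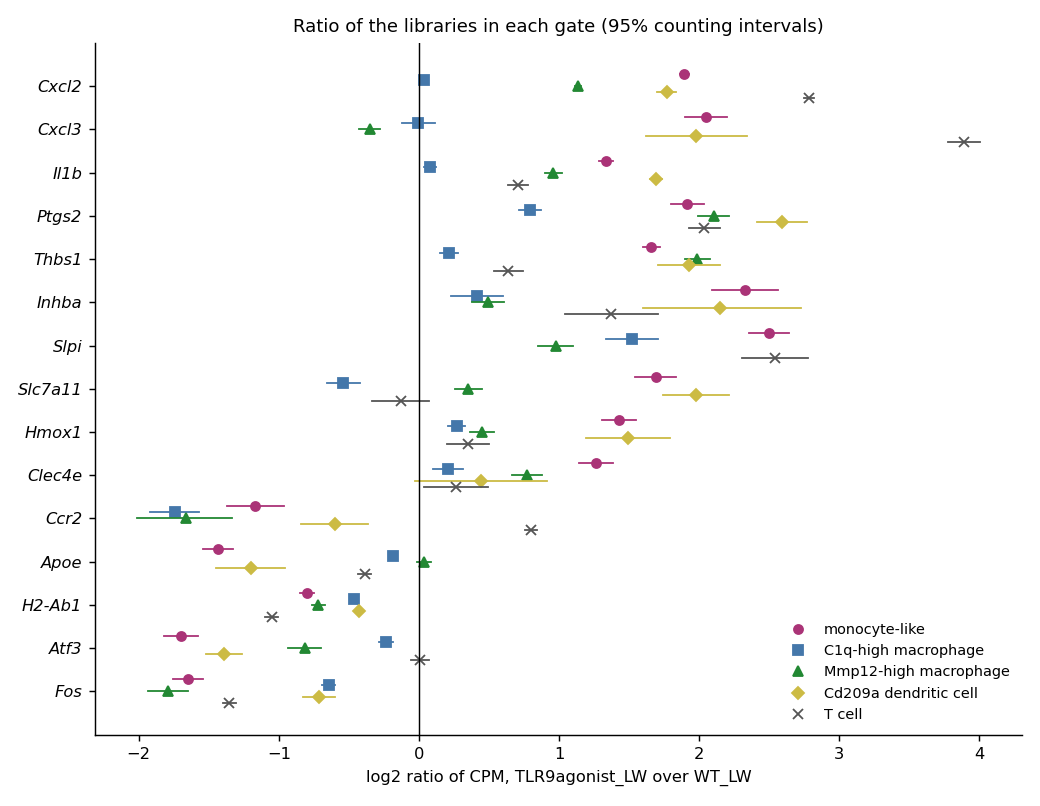
Log2 ratio of CPM, TLR9agonist_LW over WT_LW, of selected genes in each mononuclear gate and in T cells, with 95% counting intervals and a line at 0. Monocyte-like cells and Cd209a dendritic cells lie together for Cxcl2 (1.89 and 1.77), while C1q-high macrophages lie near 0 (0.04).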

How the data were processed

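The authors deposited 1 matrix of raw UMI counts per library, with genes and barcodes (header: Cell Ranger 4.0.0). Their processing notes name fastp, Cell Ranger, Seurat and the build mm9. The build of the gene set is not given in the sources used here, so no coordinates were taken from the files. Promoters came from RefSeq (GRCm38.p6). Cells with at least 500 UMIs, 300 genes and at most 15% mitochondrial UMIs were gated on counts, and UMIs were summed per library and gate and scaled to CPM. Levels and ratios have exact Poisson intervals, shares Clopper-Pearson intervals (95%). Ratios with a library at 0 used a floor of 3 UMIs. Genes with at least 50 UMIs count as measured. Detection was compared after thinning cells to 1500 UMIs, which left out 1 gated cell. Doublets were marked with simulated pairs (30 components, 0.8% per 1000 cells) and kept. With 1 library per group no test was run. Named genes are those of the gate, of 20 lists (most UMIs, highest and lowest ratio), the 15 highest and 15 lowest ratios, markers of other cells and the leading genes against other gates. A few list genes under the floor are named for their counts. The members and lists were chosen with earlier results of these data known. Scripts were tested on simulated counts and used scikit-learn 1.9.0 for doublets, scipy 1.17.1 for intervals, pandas 2.3.3 and numpy 2.4.6, under Python 3.11.15.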

Additional observations from a re-analysis of the deposited data

How the results depend on the processing

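Across 11 alternative gates, scalings and omissions, the log2 ratios of Cxcl2 (1.70 to 2.29), Il1b (1.16 to 1.67), Thbs1 (1.41 to 2.00), Ptgs2 (1.69 to 2.26), Inhba (1.74 to 2.78), Slpi (2.19 to 2.84) and Apoe (-1.63 to -1.09) kept their direction and stayed past 2-fold. Ccr2 ranged from -1.30 to -0.82. Of 120 values of the comparison 104 moved by less than the interval or 1.5 times, and 808 of 1080 of the named genes. With Ly6c2 alone as the marker (124 and 70 cells) the log2 ratio of shares was -1.03, 345 genes were at least 2-fold lower, and the list medians were 0.45 for inflammatory cytokines, -0.11 for chemokines and -0.032 for type I interferon genes. Centred on the median gene, 262 genes were higher and 196 lower, and the medians were -0.080 for macrophage maturation, -0.24 for MHC class II, 1.47 for inflammatory cytokines and 0.42 for chemokines. A floor of 10 UMIs gave 341 higher and 1762 lower of 9821 genes, and a floor of 200 gave 56 and 85 of 2062, so fewer genes were tested there. Leaving out gated cells with markers of other cell types kept 38 and 1 cells and gave no value, and the same without the keratinocyte markers, chosen after seeing the data, kept 148 and 152 cells with a log2 ratio of shares of -0.17. A stricter C1q limit turned Cfb to -0.61 and Saa3 to -1.34, and Plac8 alone, also chosen after seeing the data, turned Cfb to -0.28. The cause was not tested. No paired analysis was possible because each group is 1 library. Low-count genes such as Tlr9 are limited by the number of cells.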

Other observations

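Genes of complement, coagulation and Fc receptors were mostly near the median gene in monocyte-like cells. Of 13 measured genes 1 was at least 2-fold higher and 2 at least 2-fold lower, with a median log2 ratio of -0.18. Over all measured genes the shares were 2.24% and 9.8%. F10, coagulation factor X, was at 317 CPM in WT_LW against 461 CPM in TLR9agonist_LW, with 9.19 and 5.15 CPM in T cells. Fcgr2b, the inhibitory Fc receptor, was at 458 and 219 CPM, while the shared signalling chain Fcer1g was at 1817 and 1624 CPM. Cfb, complement factor B, the member past 2-fold higher, was at 28.6 and 67.0 CPM, but its log2 ratio of 1.23 turned to -0.61 and -0.28 under 2 of 10 alternatives and passed 2-fold in 6. Of 16 measured chemotactic receptors and adhesion genes none was at least 2-fold higher and 3 were at least 2-fold lower, against the same background. The 3 were Ccr2, Cx3cr1 and the integrin Itga4 (75.1 and 35.6 CPM), of which Cx3cr1 met the floor only through its level in WT_LW. Cxcr4 was at 508 and 379 CPM.

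The cells held little sign of division. Mki67 was at 32.5 and 23.0 CPM, below the 185 and 75.2 CPM of T cells, and 1.44% of WT_LW and 2.42% of TLR9agonist_LW cells held it after thinning. None of the 5 measured cell cycle genes was past 2-fold, against 2.24% of all measured genes at least 2-fold higher and 9.8% at least 2-fold lower. In the list of neutrophil-like granule genes, 4 were measured, and only S100a8 and S100a9 were past 2-fold, against the same background. Both were higher in TLR9agonist_LW, and the source of their UMIs was not tested. The receptor Csf3r was at 61.6 and 33.5 CPM. Some genes under the floor of 50 UMIs differed in their counts. Those below did not count as measured and are named for that difference. How far single cells or free RNA set their counts was not examined. Il12b, a subunit of IL-12 and IL-23, had 33 UMIs in WT_LW and none in TLR9agonist_LW, Ccl24 had 43 and 1, and Ccl22 had 20 and 1. Nos2, the inducible nitric oxide synthase, had 2 and 16, Il12a 12 and 35, and Egln3, an oxygen sensor, 6 and 40.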
